A study of Mus musculus with 34 samples.

Results

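The comparison described here sets unstimulated CD4+ spleen cells of DBA/2J mice against those of 4 other inbred strains. Its members are the 3 DBA/2J arrays at T0, the time point that the design text calls the basal state, of 34 arrays in all. They were taken by strain and time from the sample labels and set against the mean of the 4 other strain means, so that each other strain weighed the same whatever its number of arrays. The other T0 arrays numbered 14: 4 of A/J, 3 of Balb/c, 4 of C57BL/6J and 3 of 129X1/SvJ. All mice were female and 8 weeks old, and no group carried a transgene, a deletion or a treatment according to the labels. CD4+ cells were pulled from spleen suspensions with magnetic beads on an autoMACS separator and held in serum-containing medium. Each sample's total RNA was read on its own Affymetrix array. A second set of arrays, T1, held cells of the same 5 strains stimulated for 4 h with phorbol 12-myristate 13-acetate (PMA, 10 ng/ml) and ionomycin (1 uM), 3 arrays of DBA/2J and 14 of the other strains. The labels do not settle whether the T0 cells were also cultured for those hours, and they call the replicates biological without saying whether each was 1 mouse.

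CD4+ T cells are the helper and regulatory cells of the adaptive immune system. They recognise peptides held by MHC class II molecules of antigen-presenting cells through the T cell receptor, whose signal passes through the CD3 chains and their adaptor proteins to transcription factors and cytokine genes. Inbred mouse strains are homozygous for different alleles at many loci, among them the MHC (H2) complex and clusters of interferon-induced genes. DBA/2J is an old strain that carries the d haplotype of H2 and known loss-of-function alleles at several loci, and it is widely used as a parent of recombinant inbred lines with C57BL/6J.

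The deposited values are on a log2 scale, so that a difference of 1 is a doubling of signal. Of 19938 genes with a probe set of their own, 10815 reached the limit of 5.33 in at least 1 strain mean at T0 (5.33 was the median of all values), and 9123 did not and were not tested. A gene is said to have passed the test when its Benjamini-Hochberg adjusted p in limma, over all 10815 genes, was under 0.05. Array medians lay between 5.28 and 5.39. The DBA/2J arrays correlated with each other at 0.981 to 0.991 and with arrays of the other strains at 0.949 to 0.973. At T0 every array correlated best with its own strain over the genes that separate the strains most. At T1 this held for 16 of 17 arrays, and 1 array, Balb/c T1 replicate 2 by its label, did not match that label: over 113 genes whose T0 strain means spanned at least 2 log2, its deviation from the other T1 arrays correlated at -0.308 with that of Balb/c, whereas the other 33 arrays had 0.609 to 0.965 with their own strain. Results at T1 are therefore given with and without it, and it takes no part in the T0 results.

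DBA/2J differed from the mean of the other strains in 864 genes at T0, which is 7.99% of the genes tested. Of these, 403 (3.73% of genes tested) were higher and 461 (4.26%) were lower in DBA/2J. Most differences were small: the median absolute difference was 0.47 among the genes that passed and 0.09 over all genes tested, and 79 genes, 29 higher and 50 lower, differed by 1 log2 or more. A difference from the mean of 4 strains can come from a single very different strain among them, so DBA/2J was also compared with each strain in turn. C57BL/6J differed from it in most genes, 1346 (12.4%), followed by A/J with 999 (9.24%), Balb/c with 890 (8.23%) and 129X1/SvJ with 555 (5.13%).

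Genes that passed against the mean and against all 4 strains separately, in 1 direction, are called apart below. There were 99 of them, 0.915% of genes tested, with 50 higher (0.462%) and 49 lower (0.453%) in DBA/2J. In 95 of the 99 the 3 DBA/2J arrays lay outside the range of the 14 others, against 254 of all genes tested (2.35%). This follows largely from how the apart genes were picked on the same arrays, and is a description. A further 360 of the 864 genes differed from 3 strains in the same direction, and in 284 of these the strain left out was 129X1/SvJ (139 higher, 145 lower), against 34 for C57BL/6J, 23 for A/J and 19 for Balb/c. Many of the gene groups described below belong to this second pattern, in which DBA/2J and 129X1/SvJ lay on the same side.

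**Figure D1:**
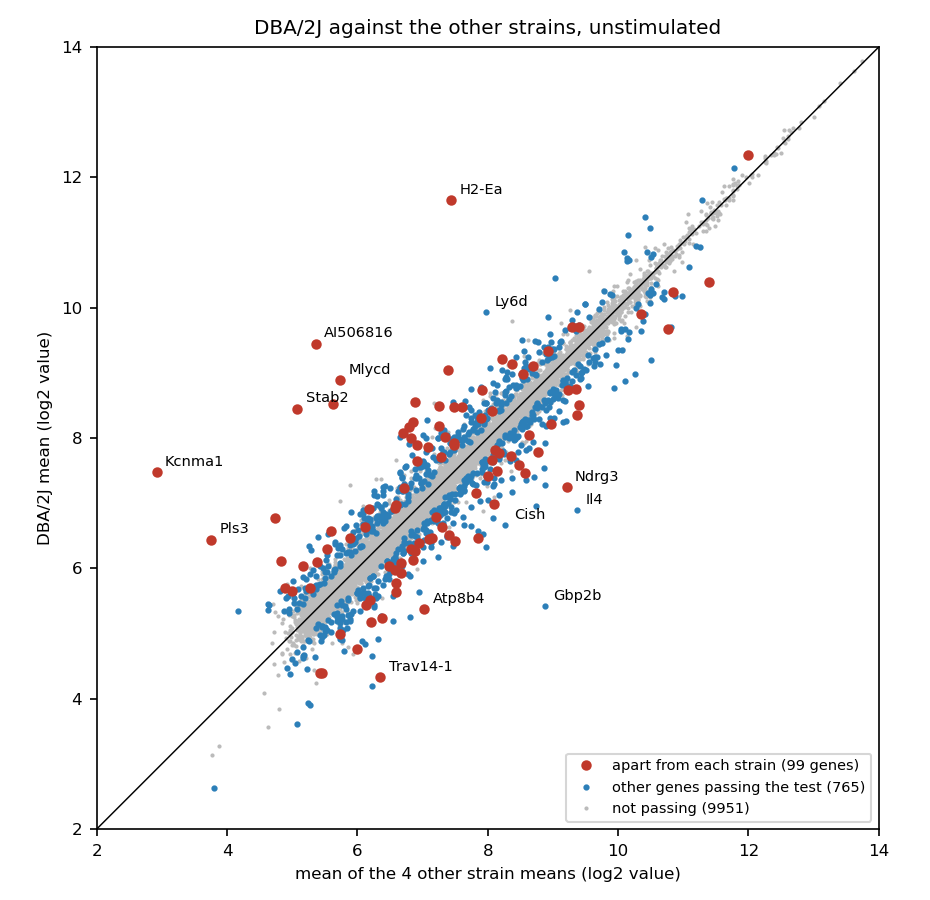
Mean log2 value of each of the 10815 genes in the 3 DBA/2J arrays (vertical axis) against the mean of the 4 other strain means (horizontal axis), unstimulated. The line marks equal values. Red points are the 99 genes in which DBA/2J differed from each strain; Kcnma1, H2-Ea and AI506816 lie farthest above the line and Gbp2b farthest below it, the last being 1 of the genes that passed without being apart.

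The replicate numbers of the labels separated the T0 arrays into 2 sets. Deviations from the strain mean correlated at a median of 0.33 between arrays of the same set (numbers 1 and 2, or 3 to 5) and at -0.31 between sets. The labels do not say what the numbers stand for. Within numbers 3 to 5, which hold 2 of the 3 DBA/2J arrays, 376 genes passed and 21 were apart. Within numbers 1 and 2, which hold the remaining DBA/2J array, 378 passed and 54 were apart. That fit has no DBA/2J spread of its own and assumes that the single array varies like the other strains. Of the genes named below that passed, 84 of 102 also passed within numbers 3 to 5, and none changed sign in either set. They were named from the fit that holds these same arrays, so such agreement was favoured by the choice and is a description. The count also moved with single arrays: it was 483 without DBA/2J replicate 3 and 508 without DBA/2J replicate 4.

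Markers of other spleen cells differed between the strains and have to be read beside the genes. For each marker list the mean log2 value of its measured members was taken in each array and set to 0 over the 17 T0 arrays. The lists here and below were chosen with earlier results of these data known, so shares within them are descriptions. The B cell list stood at 0.52 ± 0.31 in DBA/2J (SD, n = 3, range 0.27 to 0.86) and at 0.59 ± 0.29 in 129X1/SvJ, against -0.16 ± 0.03 in Balb/c, -0.24 ± 0.42 for C57BL/6J and -0.47 ± 0.10 for A/J. Of its 17 measured genes 8 were higher in DBA/2J (47.1%, against 3.73% of all genes tested) and none was lower. The median difference of the list was 0.59, against 0.00 over all genes tested. In such bulk samples fewer cells of a type and less RNA per cell cannot be told apart. The dendritic cell list stood at 0.41 ± 0.13 in DBA/2J (0.26 to 0.49), above all 14 other arrays (-0.51 to 0.23). Siglech (1.38) and Ccr9 (1.24) had the largest differences in this list, and 4 of its 9 tested genes did not pass. Ccr9 is also in the list of naive T cell genes. The list of 11 CD4 T cell markers stood at -0.25 ± 0.17 in DBA/2J, close to 129X1/SvJ at -0.20 ± 0.08, against 0.03 to 0.20 in the other 3 strain means. Cd4, which encodes the coreceptor that the beads bind, was at 9.78, 9.45 and 9.51 in DBA/2J, against 9.21, 9.37 and 9.59 (lowest, median, highest) in the other arrays, and did not pass (0.22 ± 0.07 (SE), limma adjusted p = 0.072).

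**Figure D2:**
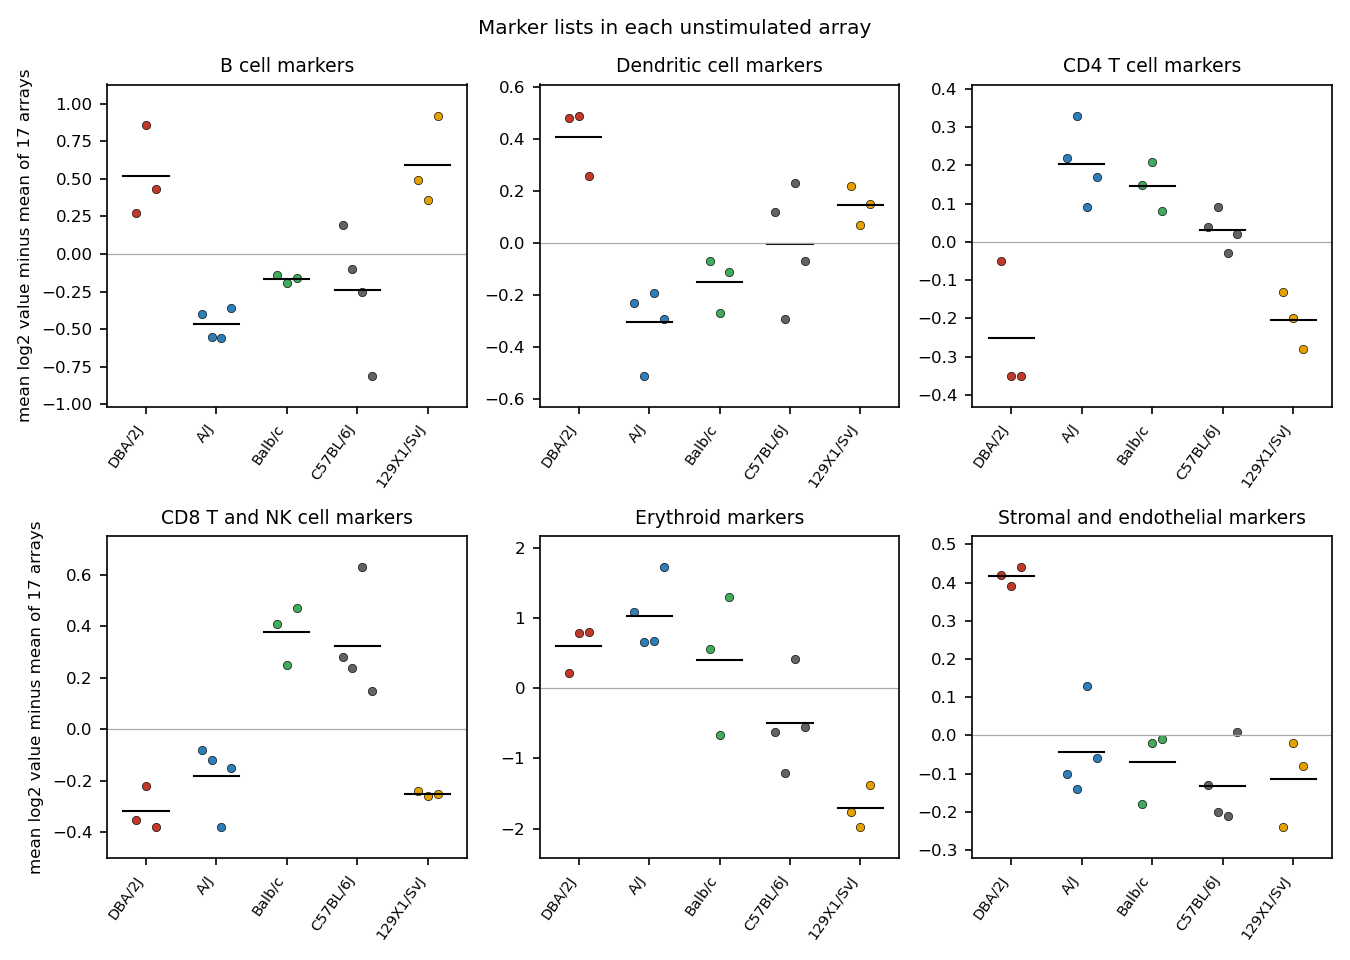
Mean log2 value of 6 marker lists in each T0 array, relative to the mean of the 17 arrays (vertical axis), by strain. Points are arrays and bars are strain means. DBA/2J and 129X1/SvJ are both high in B cell markers and low in CD4 T cell markers. All 3 DBA/2J points are above every other array in dendritic cell markers, a list in which Siglech and Ccr9 differed most. The stromal score, also highest in DBA/2J, contains Stab2, which is described separately below.

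When the B cell score of each array was added to the fit as a covariate, 381 genes passed (127 higher, 254 lower) and 50 were apart. This fit takes from DBA/2J any difference that runs along the B cell score, whatever its source. Within the genes named below, 71 of 102 still passed in it and none changed sign. They were named from a fit of the same arrays, so this too is a description.

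The genes apart and higher in DBA/2J were led by Kcnma1, on chromosome 14, which encodes the pore-forming subunit of the large-conductance calcium-activated potassium channel. It read 7.47, 7.55 and 7.44 in the 3 DBA/2J arrays, against 2.49, 2.91 and 3.77 (lowest, median, highest) in the other 14. The groups were far apart, with every other array below the limit of 5.33, so the difference of 4.57 ± 0.14 (SE, limma adjusted p = 9.25e-13) gives no fold. It was 4.51 within numbers 3 to 5 and 4.63 within numbers 1 and 2. At T1 the DBA/2J arrays read 7.44, 7.68 and 6.99, and the doubtful Balb/c T1 replicate 2 read 10.83, whereas the other 2 Balb/c arrays read 3.26 and 2.87.

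Stab2, on chromosome 10, encodes stabilin-2, a scavenger receptor of sinusoidal endothelium that takes up hyaluronan. It read 8.47, 8.30 and 8.57 in DBA/2J, against 4.81, 5.09 and 5.49 in the other arrays, a difference of 3.37 ± 0.10 (adjusted p = 8.28e-13). The other 5 tested members of the stromal and endothelial list, among them the collagens Col1a1, Col1a2 and Col3a1 and the endothelial adhesion molecule Pecam1, lay between -0.17 and 0.00, and none passed.

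Mlycd, on chromosome 8, encodes malonyl-CoA decarboxylase, an enzyme that controls fatty acid oxidation by removing malonyl-CoA. Its values were 9.16, 8.88 and 8.62 in DBA/2J, against 5.48, 5.76 and 6.03 in the other arrays. Here the other strains lay above the limit and the difference of 3.14 ± 0.10 (adjusted p = 1.6e-12) corresponds to 8.83-fold. The 4 other strain means all lay between 5.66 and 5.84.

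AI506816, which the annotation lists under a provisional name, varied among the other strains too. It read 9.06, 9.63 and 9.66 in DBA/2J, against strain means of 7.24 (C57BL/6J), 7.07 (A/J), 4.59 (Balb/c) and 2.53 (129X1/SvJ). DBA/2J was above each of them, but the others also differed widely among themselves.

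Pls3, on the X chromosome, encodes plastin-3, an actin-bundling protein. It read 6.57, 6.00 and 6.75 in DBA/2J, against 3.13, 3.58 and 5.05 in the other arrays (difference 2.68 ± 0.21, adjusted p = 2.46e-07). Ddx43, which encodes a DEAD-box RNA helicase, was higher by 2.05 ± 0.11 (adjusted p = 1.26e-09), with 6.84, 6.50 and 7.0 in DBA/2J, against 3.59, 4.73 and 5.74 in the others. Of the 50 genes that were apart and higher, 7 had passed the limit through the DBA/2J mean alone (Kcnma1, Stab2, Pls3, Wfdc17, Mexis, Pkig and Fut10), so that for these a difference was built into their being tested.

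The remaining large differences in this direction ranged from 1.18 to 1.67. They were in Zfp949, a zinc finger gene (1.67 ± 0.08), Sfi1, a centrosomal protein gene (1.65 ± 0.16), Mrps5, of the small mitochondrial ribosomal subunit (1.39 ± 0.11), Ccs, the copper chaperone of superoxide dismutase (1.38 ± 0.12), Siglech (1.38 ± 0.15), Wfdc17 (1.28 ± 0.26), Ccr9 (1.24 ± 0.18) and Ciita (1.18 ± 0.13). Wfdc17 was the least stable of them: it did not pass within numbers 3 to 5 (1.11, adjusted p = 0.0704) or with the B cell covariate (0.97, adjusted p = 0.168).

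The genes apart and lower in DBA/2J covered smaller distances and included several that act in T cell activation. Trav14-1, a variable segment of the T cell receptor alpha locus on chromosome 14, had the largest difference (-2.02 ± 0.25, adjusted p = 5.28e-05). It read 4.66, 5.03 and 3.29 in DBA/2J, all below the limit, against 5.63, 6.33 and 6.87 in the other arrays. It was 1 of 5 tested alpha and delta variable segments, and the other 4 did not pass.

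Ndrg3, a member of the N-myc downstream-regulated family, read 7.49, 7.14 and 7.11 in DBA/2J, against 8.37, 9.39 and 9.75 in the other arrays. The difference of -1.97 ± 0.11 (adjusted p = 4.47e-09) is 3.91-fold. Its neighbour on chromosome 2 among tested genes, Sla2, was also lower (-0.66 ± 0.10). Atp8b4, which encodes a phospholipid-transporting P4-type ATPase, read 5.14, 5.71 and 5.26 in DBA/2J, against 6.28, 7.10 and 7.59 (difference -1.66 ± 0.10, adjusted p = 7.35e-09).

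Fas, the death receptor that limits activated lymphocytes, read 5.96, 6.72 and 6.59 in DBA/2J, against 6.97, 7.53 and 8.00 in the others. The groups did not overlap, and the difference was -1.07 ± 0.13 (adjusted p = 2.55e-05, 2.11-fold). Tnfsf8, which encodes the CD30 ligand, read 7.30, 7.65 and 7.45 in DBA/2J, against 8.03, 8.57 and 9.26 (difference -1.10 ± 0.12, adjusted p = 1.34e-05). Gadd45b, a stress-induced activator of p38 kinase signalling, read 8.24, 8.60 and 8.25, against 8.82, 9.41 and 9.82 (difference -1.0 ± 0.09, adjusted p = 1.41e-06). In all 3 of these genes 129X1/SvJ had the lowest mean of the other strains, at 7.07, 8.16 and 8.94, and DBA/2J lay below it again.

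The others in this direction were Tceanc2 (-1.39 ± 0.09), Cacna1e, a calcium channel subunit (-1.24 ± 0.09), Rnpep, an aminopeptidase (-1.14 ± 0.11), Lrig1, a negative regulator of growth factor receptors (-1.12 ± 0.10), the small RNA gene Scarna17 (-1.09 ± 0.15), Tfpi, an inhibitor of coagulation (-1.06 ± 0.10), AI987944 (-1.04 ± 0.13) and Tuft1 (-1.03 ± 0.09). In each of these 8 genes all 3 DBA/2J arrays lay below all 14 others, as they did in Trav14-1, Ndrg3, Atp8b4, Fas, Tnfsf8 and Gadd45b.

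**Figure D3:**
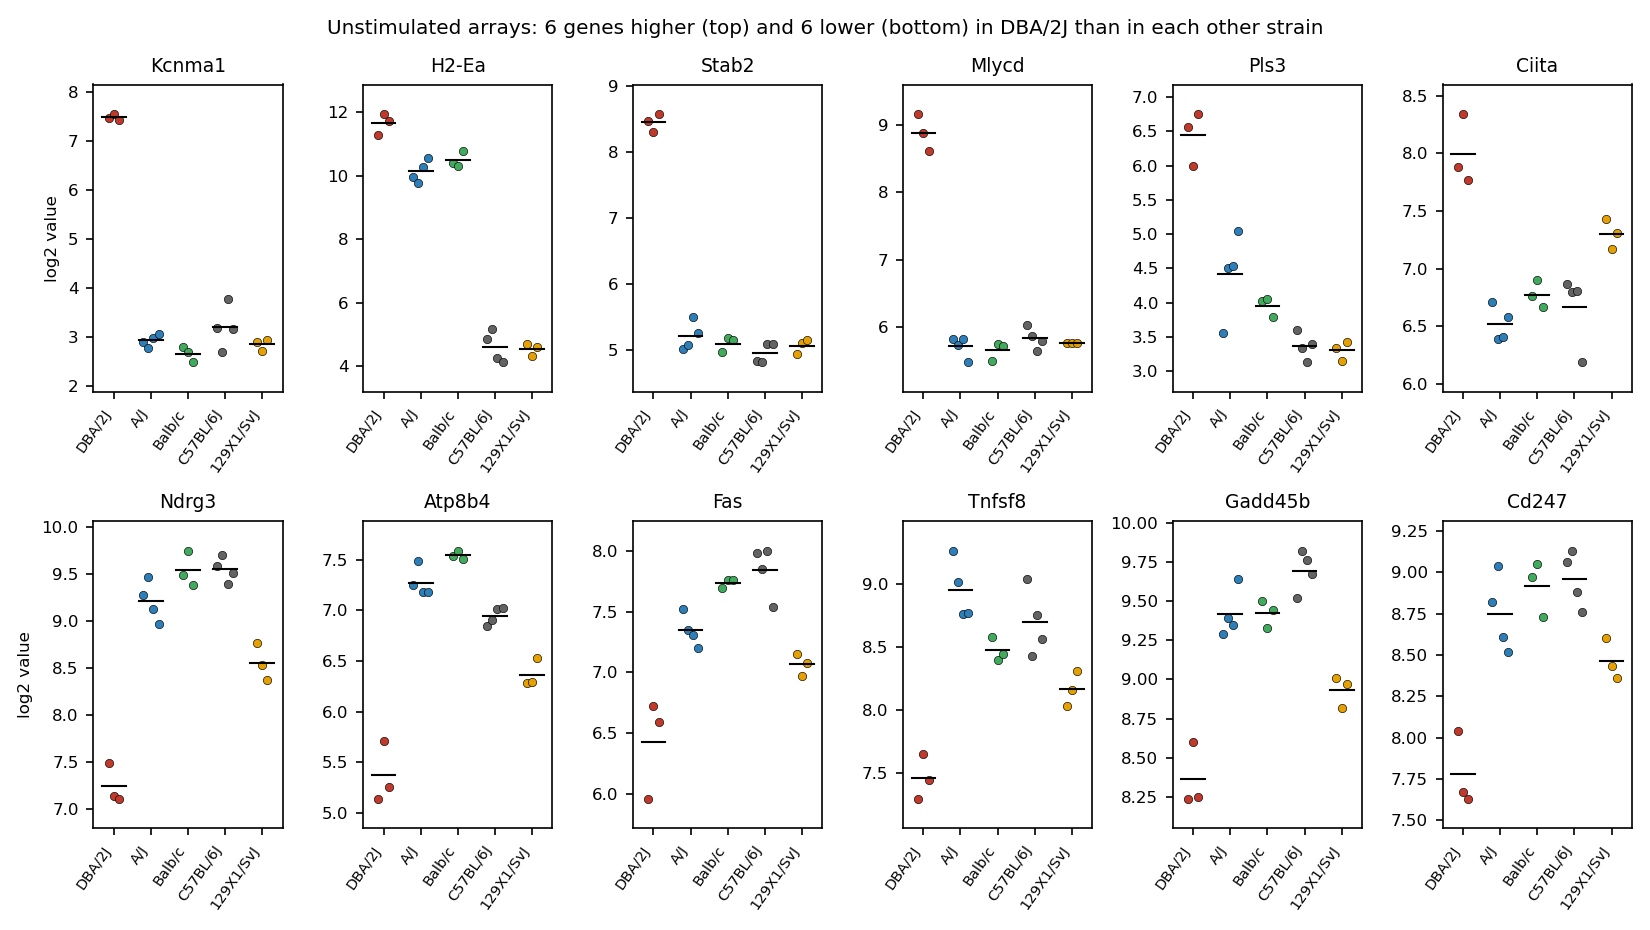
Log2 values of 12 genes in each T0 array by strain; points are arrays and bars are strain means, and each panel has its own vertical axis that does not start at 0. In the upper row the 3 DBA/2J points lie above every other array and in the lower row below every other array; in Ndrg3, Atp8b4, Fas, Tnfsf8, Gadd45b and Cd247 the 129X1/SvJ mean is the next lowest.

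MHC class II molecules are dimers of an alpha and a beta chain that carry peptides to CD4+ T cells. In the mouse they are made by B cells, dendritic cells and other antigen-presenting cells and not by resting T cells. Of 11 tested genes of this group 5 were higher in DBA/2J (45.5%, against 3.73% of all genes tested) and none was lower. The median difference of the group was 0.26. H2-Ea, the alpha chain of the I-E molecule on chromosome 17, read 11.29, 11.93 and 11.71 in DBA/2J, against 4.12, 7.46 and 10.76 in the other arrays. The other strains fell into separate levels, with means of 10.49 (Balb/c) and 10.13 (A/J), and of 4.59 (C57BL/6J) and 4.53 (129X1/SvJ); the b haplotype of H2, which both of these strains carry, is known for a deletion at this gene. DBA/2J was above A/J and Balb/c as well, which have an intact gene. The difference from the mean of the other strains was 4.21 ± 0.20 (adjusted p = 3.78e-10) and averages over those levels.

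Ciita, the master transactivator of class II genes, on chromosome 16, read 7.88, 8.34 and 7.77 in DBA/2J, against 6.19, 6.78 and 7.43 in the others, and was apart (1.18 ± 0.13, adjusted p = 1.72e-05, 2.27-fold). Cd74, the invariant chain that guides class II molecules to the endosome, was higher by 0.96 ± 0.14 (adjusted p = 0.000297), but its DBA/2J mean of 11.12 was close to the 11.11 of 129X1/SvJ. H2-Aa (0.76 ± 0.20, adjusted p = 0.0257) and H2-Eb1 (0.62 ± 0.12, adjusted p = 0.00349) passed and were not apart. H2-Ab1, H2-Eb2, H2-Oa, H2-Ob, H2-DMa and the protease Ctss did not pass, with differences from -0.11 to 0.26.

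With the B cell score as a covariate, 2 genes of the group passed as higher and 1 as lower. H2-Ea (3.73) and Ciita (0.80, adjusted p = 0.00195) kept their call, and Cd74 (0.63, adjusted p = 0.0517) and H2-Eb1 (0.39, adjusted p = 0.223) did not. Without DBA/2J replicate 3, which had the highest B cell score of the 3, 3 of the 11 genes passed.

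The promoters of class II genes carry a Y box, the inverted CCAAT element bound by NF-Y. The motif CTGATTGG was searched on both strands from 250 bases before to 50 after each start site in the RefSeq promoter table (GRCm38.p6). It was found in 4.10% of 32851 promoters. Counted by gene, with any promoter of the gene, it was found in 545 of 8689 tested genes (6.27%). Among the class II genes that the table holds it was found in 4 of 7. The 2 shown are those of genes that passed, with the motif in capitals; H2-Aa lies at chr17:34287840-34287899 on the minus strand and H2-Eb1 at chr17:34305780-34305839 on the plus strand, and the motif starts at positions -51 and -62 from the start site.

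H2-Aa: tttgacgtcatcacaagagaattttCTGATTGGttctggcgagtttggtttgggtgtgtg
H2-Eb1: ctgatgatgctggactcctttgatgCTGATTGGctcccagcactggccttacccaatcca

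The same motif also stands before H2-Eb2 and H2-Oa, which did not pass (differences -0.08 and 0.02). The motif was not confined to the class II genes that were higher in DBA/2J.

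Of the 17 B cell markers, the 4 with the largest test statistics were Fcmr, the receptor for the Fc part of IgM (1.05 ± 0.17), Fcrla, an intracellular Fc receptor-like protein of B cells (0.79 ± 0.13), Blnk, the adaptor below the B cell receptor (0.66 ± 0.14), and the kinase Btk (0.70 ± 0.17). None of the 4 was apart, and in Fcrla, Blnk and Btk the DBA/2J mean (8.12, 7.65 and 7.38) was below that of 129X1/SvJ (8.29, 7.96 and 7.62). The number of higher B cell markers was 2 without DBA/2J replicate 3, and 3 within each of the 2 sets of replicate numbers. Ly6d, a surface protein known from B lineage cells, read 9.70, 10.18 and 9.91 in DBA/2J, against 6.14, 7.90 and 9.92. It was higher by 1.95 ± 0.19 (adjusted p = 2.39e-06), with 129X1/SvJ next at a mean of 9.47, and stayed higher with the B cell covariate (1.46, adjusted p = 0.00039). Its family member Ly6e, an interferon-inducible surface protein, was higher by 0.98 ± 0.09, with DBA/2J values of 11.34, 11.50 and 11.32 near the means of C57BL/6J (11.22) and 129X1/SvJ (11.41).

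Among 9 tested dendritic cell markers 5 were higher (55.6%, against 3.73% of all genes tested) and none lower, with a median of 0.48. Siglech, a lectin that marks plasmacytoid dendritic cells, read 8.68, 8.27 and 7.76 in DBA/2J, against 6.11, 6.91 and 7.32 in the others. Ccr9, a chemokine receptor of plasmacytoid dendritic cells and also of T cells that home to the gut, read 8.55, 8.49 and 8.44, against 6.75, 7.25 and 7.98. Both were apart, and both passed with the B cell covariate (1.28, adjusted p = 0.0031, and 1.24, adjusted p = 0.0117). Irf8, a transcription factor of dendritic and B cells (0.53 ± 0.12), and Cd209a, a lectin of dendritic cells (0.51 ± 0.11), passed without being apart. Irf8 did not pass with the B cell covariate (0.27, adjusted p = 0.422), without DBA/2J replicate 2 (0.51) or replicate 3 (0.45, adjusted p = 0.101), or within either set of numbers. Itgax, Zbtb46, Batf3 and Bst2 did not pass, with differences from -0.01 to 0.16. None of the 20 monocyte, 10 neutrophil, 12 erythroid, 6 plasma cell or 3 platelet markers tested passed in limma. Of all genes tested 7.99% passed, and at that share lists this short can hold none, so these counts do not show equal levels. The erythroid list had a median of 0.87, with strain means of its score from -1.71 to 1.03 (0.60 in DBA/2J).

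Guanylate-binding proteins and immunity-related GTPases are interferon-induced enzymes that attack the vacuoles of intracellular pathogens. They lie in gene clusters on chromosomes 3, 5, 11 and elsewhere. Of 10 tested genes of these families 9 were lower in DBA/2J (90%, against 4.26% of all genes tested) and none higher. As with the other lists, this one was chosen with earlier results of these data known, and the share is a description. The median difference was -1.12, against 0.00 over all genes tested. None was apart. The score of the list stood at -1.11 ± 0.13 in DBA/2J and -0.71 ± 0.25 in 129X1/SvJ, against 0.87 ± 0.07 for Balb/c, 0.43 ± 0.24 for C57BL/6J and 0.28 ± 0.48 for A/J (SD).

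Gbp2b, the gene formerly called Gbp1, read 5.59, 5.43 and 5.25 in DBA/2J, against 4.73, 9.68 and 11.02 in the other arrays. C57BL/6J was as low (mean 5.14), while the means of the other 3 strains were 8.95 or higher. The difference of -3.45 ± 0.18 (adjusted p = 1.26e-09) was the largest of all genes that passed in the lower direction. Gbp5, which promotes inflammasome assembly, read 7.13, 7.68 and 7.03 in DBA/2J, against 7.28, 9.25 and 10.08 (difference -1.61 ± 0.17, adjusted p = 1.05e-05), and here 129X1/SvJ was the low strain (mean 7.52). Gbp8 read 6.82, 7.18 and 6.89, against 7.55, 9.02 and 10.11, a difference of -1.78 ± 0.22 with no overlap. Gbp4 was lower by -1.31 ± 0.19. Gbp3 (-0.94 ± 0.15), Gbp7 (-0.85 ± 0.20) and Gbp9 (-0.76 ± 0.18) passed with smaller differences.

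**Figure D4:**
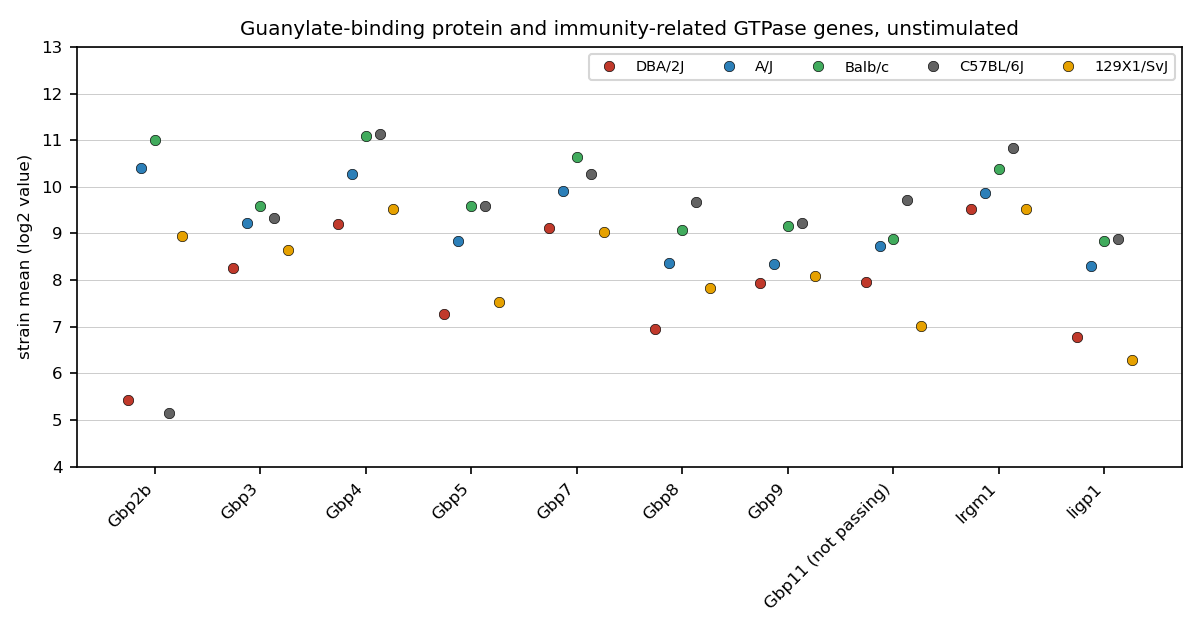
Strain means of log2 values at T0 for the 10 tested guanylate-binding protein and immunity-related GTPase genes. DBA/2J (red) and 129X1/SvJ (yellow) are the lowest of the 5 strains in most genes; in Gbp2b the low strains are DBA/2J and C57BL/6J, and Gbp11 did not pass the test.

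These genes also gave the longest run of neighbours. Ordering the tested genes along each chromosome, runs of 3 or more consecutive genes that passed in 1 direction numbered 10, and the longest was Gbp5, Gbp7, Gbp3 and Gbp2b on chromosome 3, all lower. Gbp8, Gbp9 and Gbp4 on chromosome 5 formed another run. Within numbers 3 to 5, 7 genes of the list were lower, and 7 with the B cell covariate; within numbers 1 and 2, with 1 DBA/2J array, 9 were. Sequence similarity within the family means that probe sets of different Gbp genes may share signal, which was not tested.

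The core of the interferon-stimulated response element, the site of interferon-regulatory and STAT complexes, was searched in the same promoter windows as GAAANNGAAA on both strands. It was present in 3.44% of the 32851 promoters. Counted by gene, with any promoter of the gene, it was present in 322 of 8689 tested genes (3.71%). In this group it was present in 5 of the 5 genes that the table holds (Gbp2b, Gbp3, Gbp5, Gbp7 and Irgm1). A second listed promoter of Gbp3 held no match. The 4 genes of the run on chromosome 3 are shown, all on the plus strand, with the motif in capitals as it reads on that strand, which is the reverse complement. Gbp2b is chr3:142594685-142594744, Gbp3 is chr3:142559974-142560039 (2 overlapping matches), Gbp5 is chr3:142496744-142496803 and Gbp7 is chr3:142530258-142530317.

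Gbp2b: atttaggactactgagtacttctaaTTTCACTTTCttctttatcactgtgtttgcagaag
Gbp3: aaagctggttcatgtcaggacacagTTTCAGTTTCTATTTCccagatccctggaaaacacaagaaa
Gbp5: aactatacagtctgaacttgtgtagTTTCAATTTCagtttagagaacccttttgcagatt
Gbp7: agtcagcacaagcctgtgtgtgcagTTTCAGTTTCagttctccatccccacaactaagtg

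These are letters of the reference genome, which derives from C57BL/6J, and not of DBA/2J. Gbp2b carries the motif although it was low in C57BL/6J.

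In the wider type I interferon list 6 of 33 tested genes were lower (18.2%, against 4.26% of all genes tested) and 1 was higher, with a median of -0.42. Only 3 of the 33 differences were above 0, and the score of the list was -0.34 ± 0.06 in DBA/2J, the lowest of the 5 strain means. The arrays overlapped: A/J replicates 4 and 5 stood at -0.54 and -0.41, below the DBA/2J range of -0.40 to -0.29. The highest arrays were replicate 1 of C57BL/6J (1.22) and of A/J (0.46), and DBA/2J has no replicate 1. Those lower included Usp18, which removes ISG15 from proteins (-1.40 ± 0.36, adjusted p = 0.0203), Parp9 (-0.99 ± 0.19), the RNA sensor Ifih1 (-0.53 ± 0.14) and Irf9, a subunit of the interferon-activated transcription complex (-0.42 ± 0.11). Eif2ak2, the double-stranded RNA-dependent kinase, was the exception (0.64 ± 0.19, adjusted p = 0.0451) and lost its call in 17 of 31 alternatives. Only 1 gene of the list was lower when DBA/2J replicate 2 was left out. Parp14, Dtx3l and Parp9 formed a run on chromosome 16, all lower (-0.74, -0.95 and -0.99). Ifi202b of the Ifi200 cluster on chromosome 1, a cytosolic DNA-binding protein gene, was higher by 1.18 ± 0.23 (adjusted p = 0.00354), with 4.70, 5.92 and 5.44 in DBA/2J, against 3.09, 4.25 and 4.95, and all 4 other strain means lay under the limit. It was tested through the DBA/2J mean alone, so that a difference was built into its being tested.

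Helper cytokine genes were low in unstimulated DBA/2J cells. Of 15 tested 7 were lower (46.7%, against 4.26% of all genes tested) and none was higher, with a median of -0.30. The score of the list was -0.52 ± 0.06 (SD) in DBA/2J and -0.41 ± 0.09 in 129X1/SvJ, against 0.13 to 0.37 in the other strain means. Il4, the signature cytokine of type 2 helper cells, read 7.21, 7.0 and 6.46 in DBA/2J, against 6.44, 9.96 and 11.07 in the other arrays. 129X1/SvJ was as low (mean 6.85) and the other 3 strains had means of 9.72 to 10.61, which gave a difference of -2.48 ± 0.22 (adjusted p = 9.84e-07, 5.57-fold). Ifng, the cytokine of type 1 helper cells, read 5.41, 5.20 and 5.19, against 5.06, 6.53 and 7.18 (difference -1.10 ± 0.18, adjusted p = 0.000554), again with 129X1/SvJ low at 5.35. Lif, a cytokine of the interleukin-6 family, was lower by -0.73 ± 0.12 (adjusted p = 0.000728). Il2 did not reach the limit at T0 in any strain mean, with 4.15, 3.49 and 3.82 in DBA/2J, against 3.75, 5.19 and 5.66. Of the 7, 5 passed within numbers 3 to 5, 4 within numbers 1 and 2 and 2 with the B cell covariate, in which Il4 kept its call (-2.37, adjusted p = 0.000266).

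Immediate early genes, which respond within minutes of receptor signals, showed the same direction. Of 26 tested 8 were lower (30.8%, against 4.26% of all genes tested) and none higher, with a median of -0.21. The score of the list was -0.34 ± 0.16 (SD) in DBA/2J and -0.24 ± 0.16 in 129X1/SvJ, against 0.03 to 0.26 in the other strain means. Fos, a subunit of the AP-1 factor, read 5.44, 5.89 and 5.57 in DBA/2J, against 5.85, 7.16 and 7.67 (difference -1.30 ± 0.14, adjusted p = 1.39e-05). Nr4a3 (-1.24 ± 0.17) and Nr4a1 (-1.12 ± 0.16), orphan nuclear receptors induced by T cell receptor signals, and Nfkbia, the inhibitor of NF-kappaB that is itself an NF-kappaB target (-0.60 ± 0.07), were lower too. Nfkbia was the only 1 of the 8 that was apart: it read 10.23, 10.31 and 10.17 in DBA/2J, against 10.41, 10.89 and 11.10 in the others. Jund, Egr1, Egr3, Atf3, Ier3, Dusp2, Zfp36 and Myc, which belong to the same list, did not pass and had differences between -0.12 and 0.07.

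Cish, a cytokine-induced inhibitor of STAT5 signalling, read 6.67, 6.77 and 6.56 in DBA/2J, against 6.75, 8.69 and 9.23 in the other arrays. The difference of -1.61 ± 0.09 (adjusted p = 3.3e-09) came with a mean of 6.82 in 129X1/SvJ and of 8.38 to 9.07 in the other 3 strains. Pde5a, a cyclic GMP phosphodiesterase, was lower by -2.02 ± 0.21, with DBA/2J at 4.09 to 4.33 and C57BL/6J as low (mean 4.25), both below the limit.

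Genes of T cell receptor signalling were lower in part. Of 29 tested 10 were lower (34.5%, against 4.26% of all genes tested), 3 of them apart. In the other direction 1 was higher (3.45%, against 3.73%), and the median was -0.15. The score of the list was -0.18 ± 0.08 (SD) in DBA/2J and -0.11 ± 0.04 in 129X1/SvJ, against 0.05 to 0.11 in the other strain means. Cd247, the CD3 zeta chain that carries most of the activation motifs of the receptor, read 8.04, 7.67 and 7.63 in DBA/2J, against 8.36, 8.79 and 9.13 in the other arrays. It was apart (-0.99 ± 0.11, adjusted p = 2.25e-05, 1.99-fold). Cd6, a receptor that modulates T cell activation, read 8.45, 8.13 and 8.07, against 8.66, 8.95 and 9.33, and was apart as well (-0.76 ± 0.08, adjusted p = 4.72e-06). Sla2, an adaptor that dampens receptor signals, was the third (-0.66 ± 0.10). Lcp2, the SLP-76 adaptor, was lower by -0.53 ± 0.06 (adjusted p = 2.42e-05), with 9.29, 9.30 and 9.26 in DBA/2J, close to the 129X1/SvJ mean of 9.36.

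Other members of the receptor complex did not go this way. Cd3e was higher by 0.30 ± 0.08 (adjusted p = 0.0222), and Cd3d (0.01) and Cd3g (0.13) did not pass. Cd3e lost its call in 6 of 31 alternatives, among them without DBA/2J replicate 2 (0.20, adjusted p = 0.208) and without replicate 3 (0.35), and A/J was as high (mean 9.70 in DBA/2J, 9.71 in A/J). Among the CD4 T cell markers 5 of 11 were lower (45.5%, against 4.26% of all genes tested). They were Cd247, Cd6, Trat1, Thy1 (-0.69 ± 0.12) and Cd5 (-0.43 ± 0.08). Not all of them were low in 129X1/SvJ: the DBA/2J mean was 9.02 against 9.61 in 129X1/SvJ for Cd5, and 8.22 against 9.17 for Cd6. With the B cell score in the fit 2 of the 5 markers, and 4 of the 10 signalling genes, passed. Cd247 (-1.0, adjusted p = 0.00213) and Cd6 (-0.67, adjusted p = 0.00138) kept their call there, and Thy1 (-0.60, adjusted p = 0.0553) and Cd5 (-0.34, adjusted p = 0.125) did not.

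Markers of regulatory T cells were mixed. Of 19 tested 6 were lower (31.6%, against 4.26% of all genes tested) and 1 was higher (5.26%, against 3.73%), with a median of -0.16. The score of the list was -0.17 ± 0.06 (SD) in DBA/2J and -0.20 ± 0.07 in 129X1/SvJ, against 0.04 to 0.14 in the other strain means. Foxp3, which defines the lineage, read 8.10, 7.56 and 7.64 in DBA/2J, against 7.0, 7.92 and 8.57, and did not pass (-0.16 ± 0.19, adjusted p = 0.746). Itgae, the CD103 integrin chain (-0.75 ± 0.11), Tnfrsf4, the OX40 receptor (-0.67 ± 0.08), and the transcription factor Ikzf4 (-0.59 ± 0.07) were lower. Nrp1, a semaphorin receptor found on thymus-derived regulatory T cells and also on plasmacytoid dendritic cells, was higher (0.83 ± 0.13, adjusted p = 0.000464), as was its neighbour on chromosome 8, the integrin chain Itgb1 (0.55 ± 0.07, adjusted p = 4.79e-05).

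Of 25 effector and memory genes 4 were higher (16.0%, against 3.73% of all genes tested) and 1 lower (4.0%, against 4.26%). Ccr6, a chemokine receptor of type 17 helper cells and B cells (0.67 ± 0.12), the calcium-binding protein gene S100a6 (0.69 ± 0.13) and Itgb1 were among those higher, and Nkg7, of cytotoxic granules, was the lower (-0.55 ± 0.11). With the B cell covariate 2 of the 4 passed, and Ccr6 (0.43, adjusted p = 0.133) and S100a6 (0.66, adjusted p = 0.0618) did not. Of 8 tested CD8 T and NK cell markers 4 were lower (50%, against 4.26% of all genes tested), with a median of -0.46. The score of the list was -0.32 in DBA/2J, -0.25 in 129X1/SvJ and -0.18 in A/J, against 0.33 in C57BL/6J and 0.38 in Balb/c. The lower genes were Xcl1, the chemokine lymphotactin (-1.39 ± 0.17), Nkg7, Gzmb, the protease granzyme B (-0.52 ± 0.15), and Cd8b1, the CD8 beta chain (-0.47 ± 0.09). Cd8a did not pass (-0.03). In the SLAM family of lymphocyte receptors on chromosome 1, Slamf1 was lower (-0.76 ± 0.07, limma adjusted p = 3.02e-06). Slamf9 (0.63 ± 0.10), Slamf6 (0.49 ± 0.13) and Cd84 (0.47 ± 0.11) were higher. Slamf6 lost its call without each DBA/2J array in turn and with the B cell covariate (0.47, limma adjusted p = 0.209). Cd84 lost its call without DBA/2J replicate 2 and without replicate 4. Of the lineage factors, Gata3, of type 2 helper cells (-0.41 ± 0.08), and Stat4, which transmits interleukin-12 signals (-0.60 ± 0.13), were the 2 of 18 that passed (11.1%, against 7.99% of all genes tested). Gata3 did not pass with the B cell covariate (-0.40, adjusted p = 0.0596), nor Stat4 without DBA/2J replicate 2 (-0.43, adjusted p = 0.0818).

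Of 19 naive T cell genes 2 were higher (10.5%, against 3.73% of all genes tested) and 1 lower (5.26%, against 4.26%). Lists in which no gene passed were the Gimap family (0 of 8), killer cell lectin-like receptors (0 of 7) and glutathione and detoxication enzymes (0 of 21, counts from limma). With 7.99% of all genes tested passing, short lists can hold none, and these counts do not show equal levels. Among class I genes 3 of 18 were lower (16.7%, against 4.26% of all genes tested) and none was higher. The 3 were H2-T10 (-1.21 ± 0.12), Tapbpl, a peptide editor (-0.45 ± 0.10), and H2-Q4 (-0.30 ± 0.06). In the Schlafen family on chromosome 11, Slfn1 and Slfn2 were lower (-0.47 each) and Slfn3 higher (0.47 ± 0.14, limma adjusted p = 0.0494). Slfn3 lost its call in 19 of 31 alternatives and Slfn1 in 8 of 31. In the Trim12, Trim30 and Trim34 cluster on chromosome 7, 1 of 6 genes was lower (16.7%, against 4.26% of all genes tested). That was Trim12a, with 3.98, 3.50 and 4.21 in DBA/2J, 3.82 to 3.95 in the means of A/J, Balb/c and 129X1/SvJ, and 9.41 in C57BL/6J.

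Genes with variants known in DBA/2J gave a mixed picture. Myo5a, mutated by the dilute coat colour insertion that DBA strains carry, encodes the myosin Va motor. It read 7.77, 8.13 and 7.81 in DBA/2J, against 6.18, 6.91 and 7.58 in the other arrays, and was apart and higher (0.98 ± 0.09, adjusted p = 2.24e-06). Klrd1, the CD94 chain that DBA/2J mice are known to lack on NK cells, did not pass (-0.19 ± 0.17, adjusted p = 0.642), with 5.18, 5.04 and 5.32, against 4.41, 5.42 and 6.77, around the limit. Glo1, which detoxifies methylglyoxal and is duplicated in some strains, did not pass against the mean (0.14 ± 0.12, adjusted p = 0.631), and DBA/2J (9.01, 8.74 and 8.83) lay between A/J and Balb/c (9.89 and 9.53) and C57BL/6J and 129X1/SvJ (7.84 and 7.63). Gpnmb and Hc, at which DBA/2J carries known null alleles, did not reach the limit in any strain mean. Gpnmb read 4.10, 4.37 and 4.19 in DBA/2J, against 4.24, 4.60 and 5.23, and Hc read 3.65, 3.52 and 3.56, against 3.51, 3.71 and 3.81.

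Other runs lay elsewhere. Abca1, the cholesterol exporter (1.08 ± 0.13), Mexis, a noncoding RNA known to raise Abca1 transcription in macrophages (0.81 ± 0.12), and Slc44a1, a choline transporter (0.94 ± 0.07), formed a run on chromosome 4, all higher. Mexis reached the limit through the DBA/2J mean alone, so its direction, and with it the run, was favoured by the filter. In Slc44a1 the DBA/2J arrays read 8.32, 8.04 and 8.23, against 7.09, 7.22 and 7.45. Tmie, Als2cl and Tdgf1 formed a run on chromosome 9, all lower (-1.64, -1.33 and -1.18). A further 67 runs held 2 genes; how many runs chance would give was not tested. The share of tested genes that passed ranged from 4.44% on the X chromosome to 11.7% on chromosome 1.

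Arrays of this kind read expression through short probes, and a sequence variant under a probe and a change in transcript level cannot be told apart from 1 probe set. Of the 864 genes, 40 had further probe sets that reached the limit, 63 in all. Of these 36 passed in the same direction, 20 had the same sign without passing, 5 had the other sign without passing and 2 passed in the opposite direction.

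The T1 arrays give the same strain comparison in stimulated cells, on arrays that the T0 comparison did not use. T0 and T1 arrays of a strain carry the same replicate numbers and may come from the same mice, so they may not be independent. The main fits did not pair them. In 1 fit of all 34 arrays, 1264 of 11413 genes passed at T1 (11.1%; 393 higher, 3.44%, and 871 lower, 7.63%). Without Balb/c T1 replicate 2 the number was 1708 (14.9%; 528 higher and 1180 lower). Of the 864 genes of T0, 262 (30.3%) passed at T1 in the same direction and 22 in the opposite one. Without that array these were 293 (33.9%) and 32. Of the 99 genes apart at T0, 53 (53.5%) passed in the same direction at T1 and 1 in the opposite one, and 56 and 1 without that array; 89 kept their sign in both fits.

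At T1 H2-Ea differed by 4.16 ± 0.22, Mlycd by 2.74 ± 0.16 and Zfp949 by 2.14 ± 0.11, and the T1 minus T0 difference did not pass in any of the 3 (-0.05, -0.41 and 0.46, adjusted p = 0.978, 0.451 and 0.124 in limma). Ndrg3 was also lower at T1 (-1.31 ± 0.10), by less than at T0 (T1 minus T0 0.66, adjusted p = 0.00586). Kcnma1 differed by 3.74 at T1 (adjusted p = 0.0013), and by 4.39 ± 0.17 (adjusted p = 8.99e-18) without the array that read 10.83.

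The difference between T1 and T0 in the strain effect itself passed in 272 genes (2.38%), and in 596 (5.21%) without that array. Of the 864 genes, 147 were among them, or 225 without that array. Of the 102 named genes that passed at T0, 36 were among them, and in 35 of the 36 the absolute difference was smaller at T1; Gzmb was the exception. These genes were named for passing or for a large difference at T0, or for a large T1 minus T0 difference, and the T0 value enters that difference with the opposite sign, so smaller differences at T1 were favoured by the choice and are a description.

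Il4 had the largest change. It read 11.94, 11.61 and 11.82 in DBA/2J at T1, where the other strain means were 10.65 to 11.42, so DBA/2J was higher at T1 (0.85, adjusted p = 0.0103) and lower at T0, and the T1 minus T0 difference was 3.32 (adjusted p = 4.43e-08). Gbp5 went the same way, with 9.12, 9.25 and 9.13 in DBA/2J at T1, other strain means of 8.23 to 8.89, and a T1 minus T0 difference of 2.08 (adjusted p = 5.46e-08). Gzmb was lower at T0 and higher at T1 (1.17, adjusted p = 0.00145; T1 minus T0 1.69, adjusted p = 0.00404). Its T0 call (-0.52, adjusted p = 0.0355) was lost in 8 of 29 alternatives, among them without each DBA/2J array in turn (-0.62 to -0.38) and in the fit of all 34 arrays. Xcl1 (1.83) and Cish (1.64) were lower at T0 and did not pass at T1 (0.43, adjusted p = 0.0916, and 0.03, adjusted p = 0.911).

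Pls3 did not pass at T1 (0.42, adjusted p = 0.205): it read 3.56, 4.14 and 4.37 in DBA/2J at that time, below the limit, and the T1 minus T0 difference was -2.26 (adjusted p = 8.92e-06). Ccs read 5.49, 5.72 and 6.07 in DBA/2J at T1, against other strain means of 5.75 to 6.01 (T1 minus T0 -1.51, adjusted p = 3.59e-07). Stab2 stayed higher at T1 (1.89, adjusted p = 1.26e-14), with 7.15, 7.0 and 7.41, but by less (T1 minus T0 -1.49, adjusted p = 4.43e-08). The direction and call of these T1 minus T0 differences in Il4, Gbp5, Gzmb, Xcl1, Cish, Pls3, Ccs and Stab2 were the same with Balb/c T1 replicate 2 left out.

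Among the lists, the guanylate-binding protein and immunity-related GTPase genes had 3 higher and 2 lower at T1, with a median of 0.16 where it was -1.12 at T0. The T cell receptor signalling list had none higher and 11 lower at T1 (13 lower without that array). Naive T cell genes had none higher and 9 lower at T1, where 2 were higher and 1 lower at T0. No B cell marker passed at T1 in either fit (median 0.14), where 8 did at T0. Over all genes tested at T1, 3.44% were higher and 7.63% lower. The list counts at T0 and T1 were not tested against each other.

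**Figure D5:**
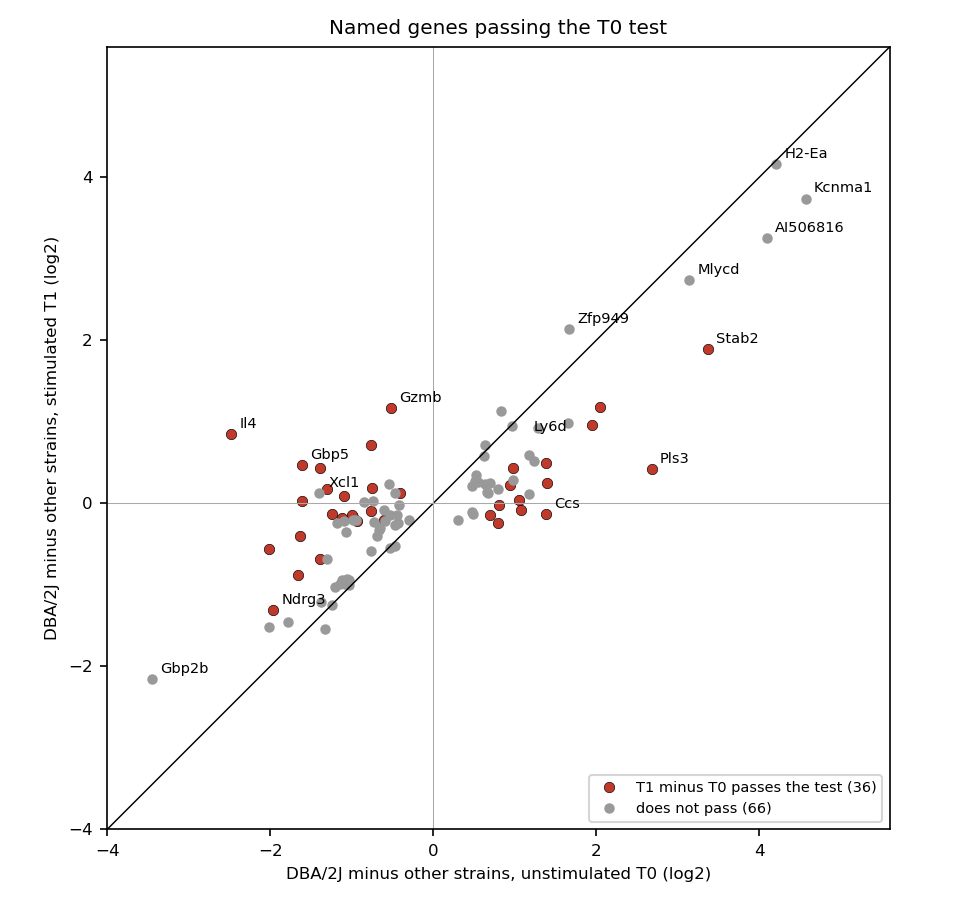
Difference between DBA/2J and the mean of the other strain means for the 102 named genes that passed at T0, unstimulated (horizontal axis, log2) and stimulated (vertical axis, log2, all 34 arrays). The line marks equal differences, and red points are the 36 genes whose T1 minus T0 difference passed. H2-Ea, Kcnma1 (whose T1 value includes the array that read 10.83) and Mlycd lie far out near the line, Pls3 and Ccs lie near 0 at T1, and Il4, Gbp5 and Gzmb lie on opposite sides of 0 at the 2 times.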

How the data were processed

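The deposited values are log2 intensities of Affymetrix arrays, 35556 probe sets on 34 arrays, made by the authors with RMA (background correction, quantile normalisation and probe summary), the tool named per the submitters' processing notes; no version or setting was given. Among the probe sets, 21789 have 1 gene symbol, 1621 several and 12146 none; the last 2 kinds were not used, so genes found only there are not analysed here. Where a gene had several probe sets, the brightest on average over the 34 arrays was taken. Values were tested as deposited with limma 3.58.1 in R 4.3.3 (lmFit and eBayes, strain as the only factor over the 17 T0 arrays, Benjamini-Hochberg over 10815 genes). A second fit of all 34 arrays gave T1 and the T1 minus T0 difference, without pairing T0 and T1 arrays of the same number. Each array is 1 sample; the number of arrays limits the precision, and p-values measure the spread between samples labelled biological replicates. Named genes are the 15 largest apart genes each way, the 8 largest that passed without being apart, up to 4 per list by test statistic with list exceptions, the 6 largest T1 minus T0 differences, the longest runs of neighbours and a few genes always named; other list members were named after their values were seen. The members and lists were chosen with earlier results of these data known. The method was tested on simulated data. Alternatives covered the filter, scaling, probe set rule, weights, replicate block and each array left out.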

Additional observations from a re-analysis of the deposited data

Results flagged for a closer look

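The difference between DBA/2J and the other strains was not the same at T1 as at T0, by the test of the T1 minus T0 difference in limma over all 34 arrays, in 36 of the 102 named genes that passed at T0. Over all genes tested the share was 2.38%. The named genes were chosen for their T0 difference, which enters T1 minus T0 with the opposite sign, and some for a large T1 minus T0 difference, so neither the count nor the signs below are independent of the choice. Of the genes lower in DBA/2J at T0, 22 were among them, with T1 minus T0 differences on the log2 scale that were all positive. They were Il4 (3.32), Gbp5 (2.08), Xcl1 (1.83), Gzmb (1.69), Cish (1.64), Gbp4 (1.49), Gbp9 (1.47), Pde5a (1.46), Tmie (1.24), Ifng (1.19), Nr4a3 (1.11), Nr4a1 (0.94), Itgae (0.94), Gadd45b (0.85), Cd247 (0.82), Atp8b4 (0.79), Gbp3 (0.72), Tceanc2 (0.70), Slamf1 (0.68), Ndrg3 (0.66), Gata3 (0.53) and Nfkbia (0.41). Of the genes higher in DBA/2J at T0, 14 were among them, and all their T1 minus T0 differences were negative. They were Pls3 (-2.26), Ccs (-1.51), Stab2 (-1.49), Abca1 (-1.16), Mrps5 (-1.14), Fcrla (-1.03), Fcmr (-1.01), Ly6d (-0.99), Siglech (-0.89), Ddx43 (-0.88), Btk (-0.84), Mexis (-0.83), Slc44a1 (-0.72) and Myo5a (-0.55). With Balb/c T1 replicate 2 left out, 50 of the 102 named genes passed this test.

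Single arrays stood apart from the rest of their strain in 11 of 218 sets of 4 arrays examined (5.05%, where chance gives about 5%). Only sets of 4 arrays were examined, which limited the search to A/J and C57BL/6J. The other strains had fewer arrays and were not examined for outlying arrays. Abca1 read 7.55 in C57BL/6J replicate 3, where the other arrays of that strain read 7.35 to 7.37. Cd5 read 9.47 in A/J replicate 1, where the other arrays of that strain read 9.66 to 9.68. Ciita read 6.19 in C57BL/6J replicate 4, where the other arrays of that strain read 6.80 to 6.87. Fcrla read 7.0 in A/J replicate 1, where the other arrays of that strain read 6.47 to 6.52. Fcrla read 6.74 in C57BL/6J replicate 4, where the other arrays of that strain read 7.15 to 7.20. H2-T10 read 8.66 in C57BL/6J replicate 1, where the other arrays of that strain read 8.21 to 8.22. Mexis read 4.82 in A/J replicate 1, where the other arrays of that strain read 4.98 to 4.99. Nrp1 read 6.49 in C57BL/6J replicate 4, where the other arrays of that strain read 6.83 to 6.89. Tapbpl read 7.70 in C57BL/6J replicate 1, where the other arrays of that strain read 7.20 to 7.28. Thy1 read 8.79 in C57BL/6J replicate 2, where the other arrays of that strain read 8.46 to 8.48. Zfp949 read 6.87 in A/J replicate 4, where the other arrays of that strain read 7.04 to 7.06.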

How the results depend on the processing

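The direction of every named gene that passed was the same in all alternatives run, and 60 of 102 passed in each of them (78 in every fit that left out 1 array). Counts moved more. With array weights 1408 genes passed (611 higher, 797 lower; 1719 against Balb/c). Deviations of same-numbered arrays of different strains correlated at a median of 0.33 (-0.01 to 0.57, 25 of 27 above 0.1), against -0.26 between different numbers. The main fit did not use the numbers as a block. With the replicate number as a block 1144 genes passed, 134 were apart and 837 differed from 129X1/SvJ. A different block, of strain and replicate number, matched T0 and T1 arrays of the same strain and number. With it the T1 minus T0 difference passed in 428 genes, against 272 in the main fit. With the 2 sets of numbers as a block, chosen after seeing the data, 1414 passed (666 higher, 748 lower), 157 were apart, and 1651, 2037 and 966 differed from A/J, C57BL/6J and 129X1/SvJ. Within numbers 3 to 5, 376 passed (159 higher, 217 lower), 21 were apart, and 475, 206, 708 and 110 differed from A/J, Balb/c, C57BL/6J and 129X1/SvJ. Within numbers 1 and 2 these were 378 (159 and 219), 54, and 591, 458, 724 and 289. With the B cell score as a covariate, also added after seeing the data, they were 381 (127 and 254) and 50, with 197, 427 and 670 against A/J, Balb/c and C57BL/6J. Fewer arrays enter the within-number fits; the cause of the other shifts was not tested.

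Leaving out 1 array at a time gave 483 to 905 genes (215 to 408 higher, 250 to 506 lower), 68 to 99 apart, 649 to 1008 against A/J, 544 to 893 against Balb/c, 924 to 1392 against C57BL/6J and 364 to 574 against 129X1/SvJ. At T1 it gave 581 (without DBA/2J T1 replicate 2) to 1708 genes, and 147 to 596 T1 minus T0 differences, the highest of both without Balb/c T1 replicate 2. The 3 DBA/2J arrays limit every comparison, and values under the limit were not read as levels.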
